A study of Mus musculus with 23 samples.

Results

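Checkpoint and apoptosis genes were followed in juvenile testes of reciprocal house mouse hybrids, of crosses within a subspecies and of the parental strains. Of 10 genes proposed by symbol, 7 of the 19661 genes on the array could be read: Pmaip1, Bbc3, Bak1, Trp53inp1, Trp63, Chek1 and Chek2. Each had 1 probe set, and all 7 passed a filter on dim signal. Bax and Trp53 had no probe set listed under their symbol and are not analysed here, and Cdkn1a shared its probe set with 4930567H12Rik and was not used. Pmaip1, Bak1 and Trp53inp1 were picked because earlier results from these hybrid arrays showed them to differ, and the others for their roles in the same pathway. For all 7, the comparisons that involve a hybrid between subspecies are therefore given as a description, with no test, and only comparisons among the other genotypes are tested. The parental arrays had a part in that choice too, so tests that use them are not independent of it.

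The 23 arrays (Affymetrix Mouse Gene 1.0 ST) fell into 7 genotypes, all of mice aged 14.5 days, without any treatment, and each array held RNA from a pool of 4 testes. PWDxB6 (3 arrays) and B6xPWD (3 arrays) are the reciprocal F1 hybrids of PWD, an inbred strain of Mus musculus musculus, with B6, a laboratory strain mainly of Mus musculus domesticus origin. PWDxPWK (2 arrays) is an F1 of 2 musculus strains. B6xBALB/C (6 arrays) and BALB/CxB6 (3 arrays) are the reciprocal F1s of 2 laboratory strains, called here the B6 and BALB/C F1s. The inbred parents were PWD (3 arrays) and B6 (3 arrays). By convention the female is named first, and PWDxB6 males are known to be sterile with meiotic arrest. The authors excluded 1 further PWDxPWK array on their quality plots. Whether pools of a genotype were of separate litters is not labelled, and the p-values cover only the spread between the pools.

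Cells that carry unrepaired DNA breaks or unpaired chromosomes can be removed by a checkpoint. The kinases ATM and ATR sense the damage and activate CHEK2 and CHEK1, which act on p53 and its relatives p63 and p73. These transcription factors raise BH3-only proteins such as NOXA and PUMA, which release BAX and BAK1 to permeabilize the outer mitochondrial membrane, after which cytochrome c and the caspases dismantle the cell. In the testis this route is known for the loss of spermatocytes that fail in meiosis.

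Values are log2 intensities as deposited, and levels are compared between genotypes within a gene and not between genes. Whether sequence differences between the strains under the probes change a signal was not tested for any gene. A lower signal in PWD or PWDxPWK therefore cannot be told apart from such a difference. Array medians lay between 6.13 and 6.28, and in no pair of arrays were most values identical. The labels describe the material as isolated spermatogenic cells. All 12 markers of early meiosis, such as Sycp3 and Dmc1, and all 12 of spermatogonia lay above the dim threshold, and so did all 11 measured Sertoli cell markers, whose mean level was 9.19 to 9.78 over the arrays. Of the spermatid markers 7 of 10 were above the threshold, among them Prm1 (mean 5.39) and Prm2 (mean 5.82), while the mean level over all 10 was 4.94 to 5.31. Signal over background is unknown, so a level above the threshold does not show that a gene is expressed or a cell type present. The genotypes differed in 16 pachytene spermatocyte markers (15 above the threshold, Pgk2 below it): their mean level was 6.80 to 7.14 in PWDxB6, 7.47 to 7.96 in B6xPWD, 7.15 to 7.19 in PWDxPWK, 6.85 to 8.49 in B6xBALB/C, 7.20 to 7.21 in BALB/CxB6, 6.76 to 6.95 in PWD and 7.60 to 7.90 in B6. Its part in the results was not tested beyond fits with this level as a covariate, and fewer cells of a type and less RNA per cell cannot be told apart in such bulk samples.

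Pmaip1 (chromosome 18) encodes NOXA, a BH3-only protein that neutralizes MCL1 and is a transcriptional target of p53. Its level was higher in both directions of the hybrid cross than in every other genotype. In PWDxB6 it was 7.67, 7.95 and 7.35. In B6xPWD it was 7.65, 7.89 and 7.86. All 6 hybrid arrays, between 7.35 and 7.95 with a median of 7.76, lay above the 17 other arrays, between 6.74 and 7.31. The gap between the lowest hybrid array and the highest other array was small, 0.04, and was set by PWDxB6 replicate 3 and B6xBALB/C replicate 1.

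Outside the hybrids, the levels of Pmaip1 lay close together. PWDxPWK had 7.06 and 7.04. B6xBALB/C ran from 6.85 through a median of 7.10 to 7.31, and BALB/CxB6 had a range of 6.91 to 7.12 over 3 arrays. The inbred parents were the 2 lowest genotypes, with 6.78, 6.74 and 6.74 in PWD and 6.75, 6.85 and 6.94 in B6. In the order of the 7 means, from B6xPWD (7.80 ± 0.14) and PWDxB6 (7.65 ± 0.30) down to B6 (6.85 ± 0.09) and PWD (6.75 ± 0.02; SD, n = 3 each), the step of 0.56 from PWDxB6 to B6xBALB/C (7.10 ± 0.15, SD, n = 6) was the only one between neighbours that exceeded the sum of their SDs. The genotype means spanned 1.05, against a residual SD between arrays of 0.15, the widest span of the 7 genes.

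Relative to the mean of the inbred parents (6.80), Pmaip1 was 0.86 higher in PWDxB6 (SE 0.11, 1.81-fold) and 1.00 higher in B6xPWD (SE 0.11, 2.00-fold). These 2 differences share the parental arrays. Relative to the F1 with the same mother strain, it was 0.60 higher in PWDxB6 than in PWDxPWK (SE 0.14) and 0.70 higher in B6xPWD than in B6xBALB/C (SE 0.11), each without overlap of the arrays. The reciprocal hybrids overlapped, with a difference (PWDxB6 minus B6xPWD) of -0.15 (SE 0.12, 95% interval -0.41 to 0.11). Both hybrids had a high Pmaip1 level, and their pachytene marker levels did not overlap. With that marker level as a covariate, and under every other alternative run, the differences from the mid-parent stayed positive. They lay between 0.71 and 1.01 for PWDxB6 and between 0.90 and 1.08 for B6xPWD. Within genotypes the marker level varied most in B6xBALB/C (SD 0.63), so the covariate fit rests largely on that genotype. Whether cell composition has a part in the Pmaip1 level was not tested.

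**Figure D1:**
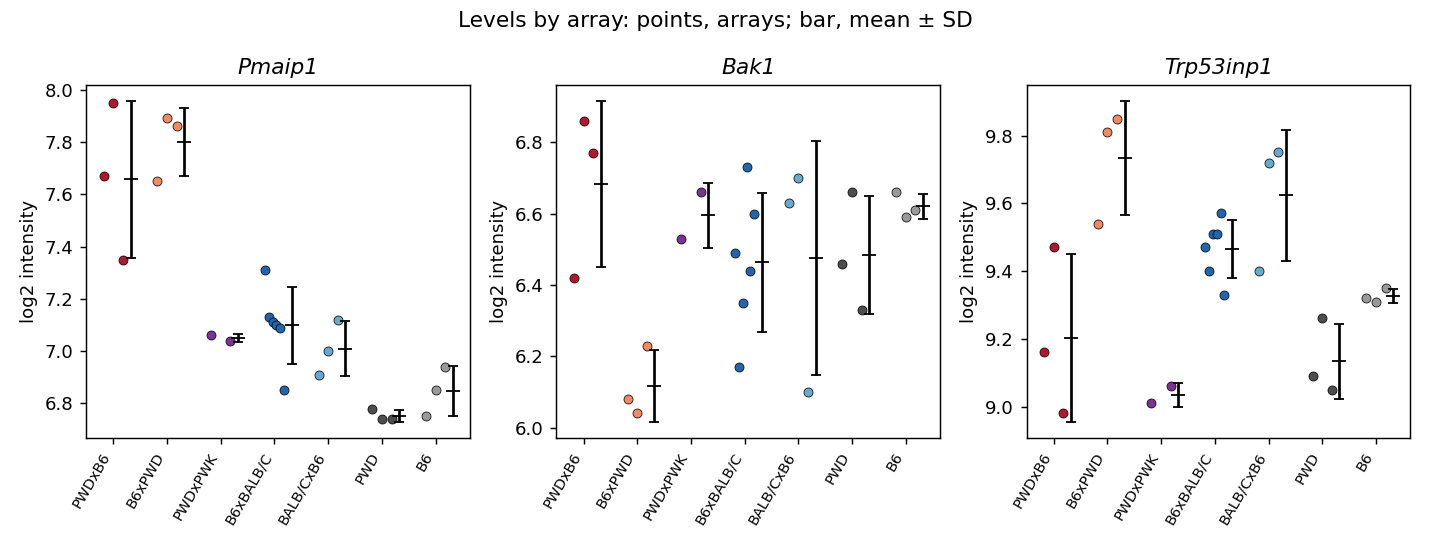
Log2 intensity (vertical axes, each with its own range, not starting at 0) of Pmaip1, Bak1 and Trp53inp1 on the 23 arrays by genotype; points are arrays and bars the mean ± SD. For Pmaip1 the 6 arrays of PWDxB6 and B6xPWD lie between 7.35 and 7.95, above the other 17; for Bak1 the 3 B6xPWD arrays lie at 6.04 to 6.23 and the 3 PWDxB6 arrays at 6.42 to 6.86; for Trp53inp1 the 2 PWDxPWK arrays lie at 9.01 and 9.06, below the arrays of both B6 and BALB/C F1s.

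Hybrid arrays that all lay above all others were found for 15 of 14745 genes tested (0.102%), and hybrid arrays that all lay below for 0. Of these 15 genes, 9 are X-linked, 2 Y-linked and 4 autosomal. The sex-linked ones included Zfy1 and Zfy2, zinc-finger genes of the Y, with gaps of 0.35 and 0.62, and Tsga8 and 1700080O16Rik of the X, with gaps of 0.34 and 0.40. The other autosomal genes were 1700007K13Rik, Pcbd1 and Selenot, and Pmaip1 ranked 11 by size of the gap. These genes are listed because they pass the same condition as Pmaip1, and were chosen after their values were seen.

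The genes whose values over the 23 arrays resembled those of Pmaip1 most were Tsga8 (Pearson r 0.87, Spearman rho 0.72), Zfy1 (r 0.85, rho 0.54), Cdk1 (r 0.85, rho 0.90), Zfy2 (r 0.84, rho 0.47) and Triqk (r 0.83, rho 0.75). The arrays share genotypes, which sets much of these values, so they are a description over 23 arrays. Zfy1 and Zfy2 are near-identical copies that may share probe signal. Cdk1, the kinase that drives entry into the meiotic and mitotic divisions, averaged 8.76 in PWDxB6, 8.96 in B6xPWD and 8.36 over the other arrays. Unlike Tsga8 and the Zfy pair, its hybrid arrays (8.61 to 9.07) overlapped the other arrays (7.94 to 8.91).

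**Figure D2:**
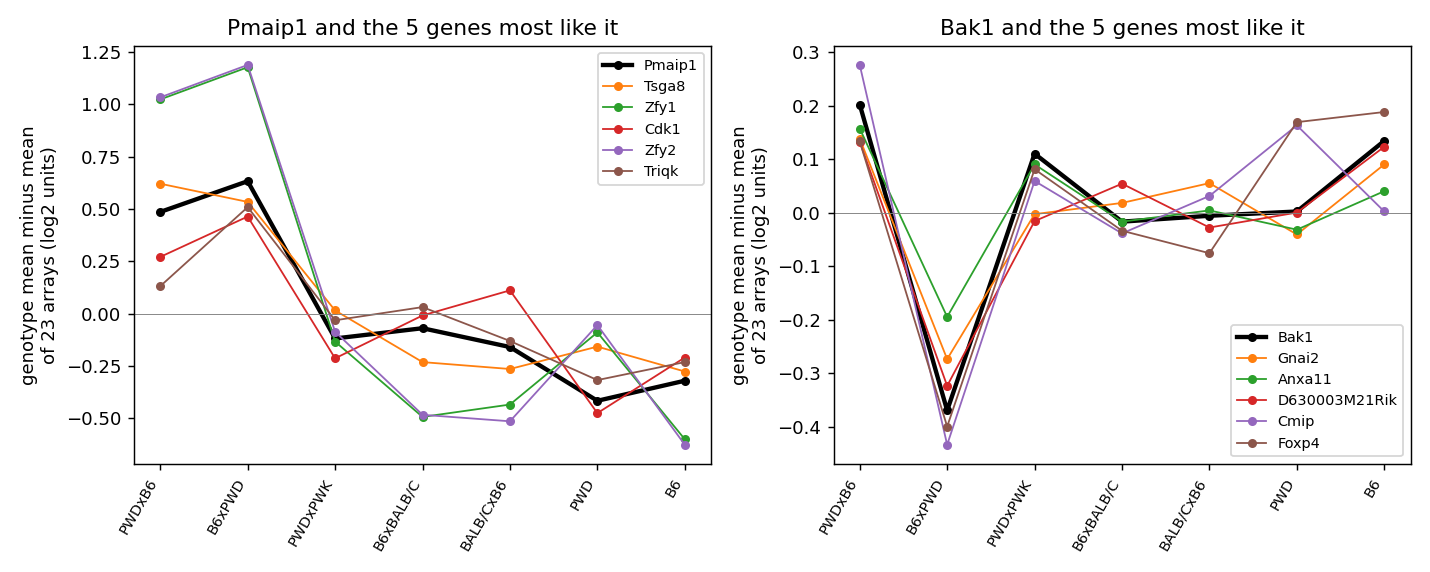
Genotype mean minus the mean over 23 arrays (log2 units, vertical axis) for Pmaip1 (left) and Bak1 (right), each with the 5 genes of highest Pearson r over the arrays. Pmaip1, Zfy1 and Zfy2 stand high in both PWDxB6 and B6xPWD, with Zfy1 averaging 8.05 and 8.21 there; Bak1 and its 5 genes are lowest in B6xPWD.

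Comparisons that use PWD or B6 draw on arrays that, as the mid-parent, helped to choose the genes. Among comparisons without a hybrid between subspecies, Pmaip1 passed no test. It differed by -0.10 between PWD and B6 (SE 0.12, limma adjusted p = 0.639), and by -0.00 between PWDxPWK and the B6 and BALB/C F1s (SE 0.12, 95% interval -0.25 to 0.25, limma adjusted p = 0.99). PWDxPWK exceeded PWD by 0.30 without overlap of the arrays (SE 0.14, 95% interval 0.01 to 0.59), which has an unadjusted p of 0.0433 in limma and an adjusted p of 1. The B6 and BALB/C F1s exceeded B6 by 0.21 (SE 0.10, 95% interval -0.01 to 0.42, limma adjusted p = 0.26). These F1 effects are each against 1 parental strain, while the 0.86 and 1.00 of the hybrids between subspecies are against the mean of both parents. There were no arrays of inbred PWK or BALB/C, so an F1 effect cannot be told apart from a difference of those strains. No test was run between the F1 effects and the hybrids. The musculus minus the domesticus F1 effect was 0.09 (SE 0.17, limma adjusted p = 0.994).

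Bbc3 (chromosome 7) encodes PUMA, the other BH3-only protein regarded as a main executor of p53-dependent death, and did not follow Pmaip1. It had 5.68, 5.79 and 5.35 in PWDxB6, and 5.97, 5.43 and 4.92 in B6xPWD, so the B6xPWD arrays alone spanned more than the means of all 7 genotypes (a span of 0.43). PWDxPWK had 5.95 and 5.43, B6xBALB/C 5.23 to 5.48 with a median of 5.35, and BALB/CxB6 5.42, 5.20 and 5.43. The parents had 5.81, 5.38 and 5.52 in PWD, all above the 5.34, 5.31 and 5.14 of B6. No neighbouring means in the order of genotypes, from PWDxPWK (5.69 ± 0.37, SD, n = 2) to B6 (5.26 ± 0.11, SD, n = 3), differed beyond their spread.

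Against the mid-parent, Bbc3 differed by 0.19 in PWDxB6 (SE 0.16) and 0.03 in B6xPWD (SE 0.16), and the reciprocal difference of 0.17 (SE 0.18) ran from -0.09 without B6xPWD replicate 3 to 0.43 without B6xPWD replicate 1. Of the tested comparisons, the larger differences were 0.34 between PWDxPWK and the B6 and BALB/C F1s (SE 0.18, limma adjusted p = 0.252) and 0.31 between PWD and B6 (SE 0.18, limma adjusted p = 0.265). Bbc3 was the dimmest of the 7 probe sets, at a mean of 5.44 against the dim threshold of 5.125, and its residual SD of 0.25 was the largest. Whether its signal was above background is unknown.

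Bak1 (chromosome 17) encodes one of the pore-forming effectors that BH3-only proteins unleash at the mitochondrion. It was lowest in B6xPWD and separated the reciprocal hybrids. It was 6.42, 6.86 and 6.77 in PWDxB6, and 6.08, 6.04 and 6.23 in B6xPWD, with no overlap. In the crosses within a subspecies it was 6.53 and 6.66 in PWDxPWK, 6.17 to 6.73 with a median of 6.47 in B6xBALB/C, and 6.63, 6.70 and 6.10 in BALB/CxB6. In the parents it was 6.46, 6.66 and 6.33 in PWD, and 6.66, 6.59 and 6.61 in B6. The low B6xPWD values overlapped single arrays of the B6 and BALB/C F1s, BALB/CxB6 replicate 3 and B6xBALB/C replicate 2, but no parental array.

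Bak1 averaged 6.69 ± 0.23 in PWDxB6 and 6.11 ± 0.10 in B6xPWD (SD, n = 3 each), a difference of 0.57 (SE 0.15, 1.49-fold, between 0.46 and 0.70 under the alternatives run). Against the mid-parent of 6.55, PWDxB6 differed by 0.13 (SE 0.13, 95% interval -0.13 to 0.40) and B6xPWD by -0.44 (SE 0.13, 95% interval -0.71 to -0.17). In the order of the means, the step of 0.35 from B6xBALB/C (6.47 ± 0.19, SD, n = 6) to B6xPWD was the only one beyond the sum of the SDs, and the other 6 genotypes, from 6.47 to 6.69, could not be ordered. B6xPWD had the higher pachytene marker level of the reciprocal hybrids, and with that level as a covariate the reciprocal difference in Bak1 was 0.46. Early meiosis markers were also higher in B6xPWD (9.19 to 9.26, against 8.97 to 9.10 in PWDxB6). Sertoli markers were lower there (9.42 to 9.47, against 9.51 to 9.68), as were peritubular and stromal markers (8.62 to 8.74, against 8.75 to 9.08). The other marker lists overlapped between these hybrids. Whether cell composition has a part in the Bak1 level was not tested. None of the tested differences of Bak1 passed, with estimates from -0.15 (B6 and BALB/C F1s minus B6, SE 0.12, limma adjusted p = 0.557) to 0.12 (PWDxPWK minus those F1s, SE 0.14, limma adjusted p = 0.672) and an interaction of 0.25 (SE 0.21, limma adjusted p = 0.983).

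The genes that resembled Bak1 most over the 23 arrays were Gnai2 (r 0.84, rho 0.82), Anxa11 (r 0.82, rho 0.83), D630003M21Rik (r 0.81, rho 0.69), Cmip (r 0.80, rho 0.74) and Foxp4 (r 0.80, rho 0.70), again as a description over arrays that share genotypes. All 5 had their lowest genotype mean in B6xPWD. Cmip averaged 7.69 in PWDxB6, 6.98 in B6xPWD and 7.44 over the other arrays. None of the genes most like Bak1 was among those most like Pmaip1, whose profile was high in both hybrids.

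Promoter sequence was listed for 4 of the 7 genes (Bak1, Bbc3, Chek1 and Chek2) and is shown for Bak1 and Chek2, the listed genes whose reciprocal hybrid arrays did not overlap. The windows run from 250 bases before to 50 bases after the annotated start (RefSeq, GRCm38.p6, written 5′ to 3′ on the strand of the gene), at chr17:27028578-27028877 on the minus strand for Bak1 and chr5:110839733-110840032 on the plus strand for Chek2. Capitals mark the letters CCAAT and AACNG, the core of the site of the meiotic MYB factors, on either strand.
Bak1: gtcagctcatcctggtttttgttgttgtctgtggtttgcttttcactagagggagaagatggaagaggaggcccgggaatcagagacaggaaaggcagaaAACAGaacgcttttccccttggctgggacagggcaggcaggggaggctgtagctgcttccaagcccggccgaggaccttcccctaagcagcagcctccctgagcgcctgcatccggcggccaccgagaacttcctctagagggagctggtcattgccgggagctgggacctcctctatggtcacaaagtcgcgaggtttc
Chek2: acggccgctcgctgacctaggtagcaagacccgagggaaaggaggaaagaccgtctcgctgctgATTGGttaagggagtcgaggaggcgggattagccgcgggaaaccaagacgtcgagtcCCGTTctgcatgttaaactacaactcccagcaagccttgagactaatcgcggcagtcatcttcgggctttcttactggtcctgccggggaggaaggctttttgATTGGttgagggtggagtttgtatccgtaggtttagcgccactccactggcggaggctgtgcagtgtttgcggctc
The Bak1 window held 1 AACNG match, 150 bases before the start, and no CCAAT. The Chek2 window held 2 CCAAT matches, at 186 and 26 bases before the start, and 1 AACNG match at 129, and no matches of different motifs overlapped. Of 32851 promoter windows of the same length, 37.4% held CCAAT and 80.3% held AACNG, so such matches are common. The p53 consensus half-site, searched by name on both strands, is in 8.36% of windows and in none of those listed for the 4 genes, which says only that these letters are not in these windows.

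Trp53inp1 (chromosome 4) encodes a p53-induced nuclear protein that promotes cell cycle arrest, death and autophagy, and gave the only tested difference of the 7 genes that passed. It was 9.01 and 9.06 in PWDxPWK, below every array of the B6 and BALB/C F1s. Those F1s had 9.33 to 9.57 with a median of 9.49 in B6xBALB/C, and 9.40, 9.72 and 9.75 in BALB/CxB6. The fitted difference was -0.51 (SE 0.12, 95% interval -0.75 to -0.27, 1.42-fold lower in PWDxPWK, limma adjusted p = 0.00499). In that comparison 11% of all genes tested were called and 17.6% had arrays without overlap, and 1 of the 7 genes did each. Without PWDxPWK replicate 1 the adjusted p was 0.0859 (difference -0.48), and without replicate 2 it was 0.0516 (difference -0.53). With the pachytene marker level as a covariate the difference was -0.45 (limma adjusted p = 0.0135). Whether the strains differ in sequence under the 1 probe set of this gene was not tested, so signal and expression cannot be told apart here.

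The musculus parent also lay low for Trp53inp1. PWD had 9.09, 9.26 and 9.05, without overlap with the 9.32, 9.31 and 9.35 of B6, but the difference of -0.19 did not pass (SE 0.12, limma adjusted p = 0.299). PWDxPWK differed from PWD by -0.10 (SE 0.13, limma adjusted p = 1), and the B6 and BALB/C F1s from B6 by 0.22 (SE 0.10, unadjusted p = 0.0362, limma adjusted p = 0.201). The difference between these F1 effects was -0.32 (SE 0.17, limma adjusted p = 0.897).

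In the hybrids, Trp53inp1 was 9.16, 9.47 and 8.98 in PWDxB6, and 9.54, 9.81 and 9.85 in B6xPWD. The arrays did not overlap, and the difference of -0.53 (SE 0.12, 1.45-fold lower in PWDxB6) ran the opposite way to that of Bak1. It stayed between -0.67 and -0.42 under the alternatives. Against the mid-parent of 9.23, PWDxB6 differed by -0.03 (SE 0.10) and B6xPWD by 0.51 (SE 0.10), so as for Bak1 it was B6xPWD that stood away from the parents. Relative to B6xBALB/C, the F1 with the same mother strain, B6xPWD was 0.27 higher (SE 0.10), with overlap of the arrays. The B6xPWD arrays also overlapped those of BALB/CxB6 (9.40 to 9.75), so a high level was not particular to this hybrid. The order of means ran from B6xPWD (9.73 ± 0.17, SD, n = 3) through BALB/CxB6, B6xBALB/C, B6, PWDxB6 and PWD to PWDxPWK (9.04 ± 0.04, SD, n = 2), and only the step of 0.14 between B6xBALB/C and B6 exceeded the sum of the SDs.

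Trp63 (chromosome 16) encodes p63, the p53 relative that guards the germ line, known best in mouse oocytes. It was nearly level across the genotypes, with means between 6.14 ± 0.16 in PWDxPWK (SD, n = 2) and 5.90 ± 0.01 in BALB/CxB6 (SD, n = 3), a span of 0.24 against a residual SD of 0.12. Hybrid arrays (5.82 to 6.22, median 6.12) lay within the range of the other arrays (5.89 to 6.25, median 6.07) apart from B6xPWD replicate 2. Its PWDxB6 arrays were 6.22, 6.11 and 6.01 and its B6xPWD arrays 6.14, 5.82 and 6.16. Against the mid-parent it differed by 0.01 in PWDxB6 (95% interval -0.18 to 0.21) and by -0.06 in B6xPWD (95% interval -0.25 to 0.13). Tested differences reached 0.16 at most (PWDxPWK minus the B6 and BALB/C F1s, SE 0.10, limma adjusted p = 0.386, and B6xBALB/C minus BALB/CxB6, SE 0.09, limma adjusted p = 0.464).

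**Figure D3:**
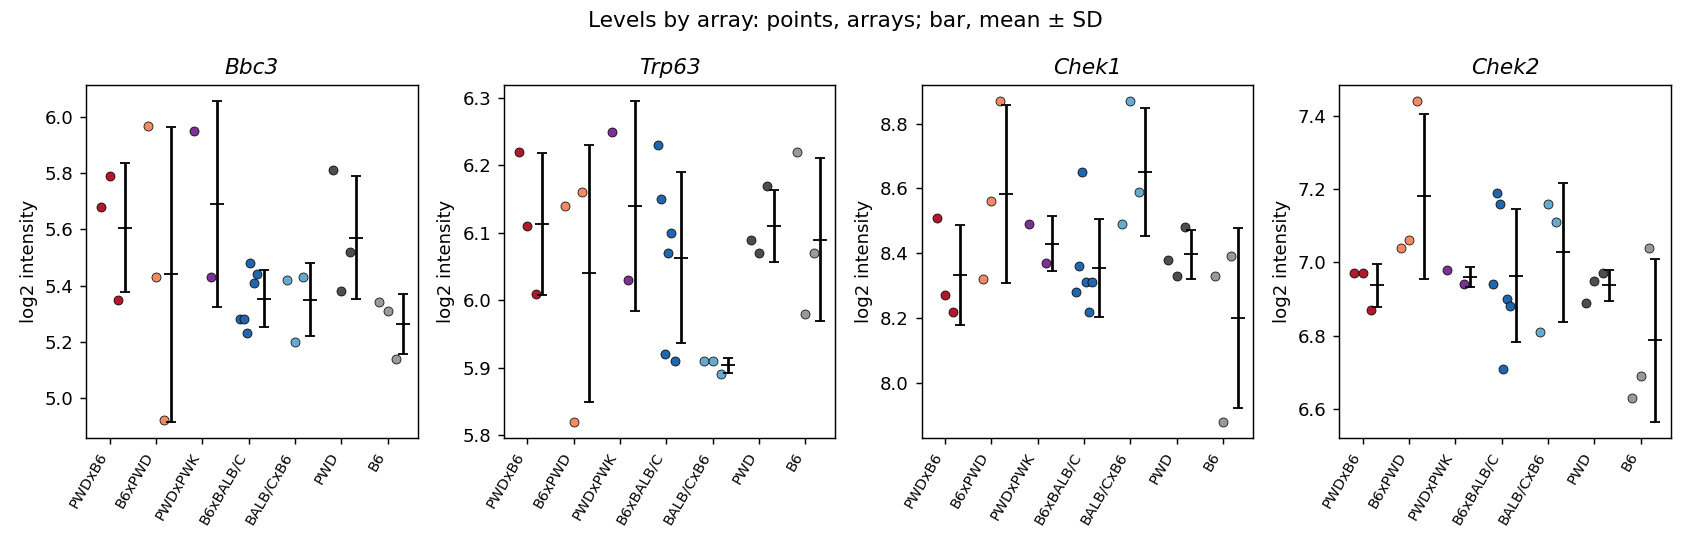
Log2 intensity (vertical axes, each with its own range, not starting at 0) of Bbc3, Trp63, Chek1 and Chek2 on the 23 arrays by genotype; points are arrays and bars the mean ± SD. Genotypes overlap for all 4 genes in most pairs; the 3 PWDxB6 arrays of Chek2 (6.87 to 6.97) lie below the 3 B6xPWD arrays (7.04 to 7.44).

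Chek1 (chromosome 9) encodes the kinase that ATR activates at unreplicated DNA and unsynapsed chromosome axes. It was 8.51, 8.27 and 8.22 in PWDxB6, and 8.32, 8.56 and 8.87 in B6xPWD, which overlapped (difference -0.25, SE 0.15). PWDxPWK had 8.49 and 8.37, B6xBALB/C 8.22 to 8.65 with a median of 8.31, and BALB/CxB6 8.49, 8.87 and 8.59. The parents had 8.38, 8.33 and 8.48 in PWD, and 8.33, 7.88 and 8.39 in B6. BALB/CxB6 (8.65 ± 0.20) and B6 (8.20 ± 0.28; SD, n = 3 each) were the highest and lowest means, and no neighbours in the order differed beyond their spread.

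Among the tested comparisons Chek1 had 2 with an unadjusted p under 0.05 that did not pass. The B6 and BALB/C F1s exceeded B6 by 0.30 (SE 0.12, unadjusted p = 0.0197, limma adjusted p = 0.146), and B6xBALB/C differed from BALB/CxB6 by -0.30 (SE 0.13, unadjusted p = 0.0284, limma adjusted p = 0.273). The first was 0.15 without B6 replicate 2, the lowest of all arrays for this gene, and the second -0.19 without BALB/CxB6 replicate 2. Against the mid-parent Chek1 differed by 0.04 in PWDxB6 (SE 0.13) and 0.28 in B6xPWD (SE 0.13). Without B6xPWD replicate 3 the 0.28 was 0.14 and the reciprocal difference was -0.10.

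Chek2 (chromosome 5) encodes the ATM-activated kinase that is known in mouse oocytes to signal to p63 and p53. It was 6.97, 6.97 and 6.87 in PWDxB6, and 7.04, 7.06 and 7.44 in B6xPWD, without overlap and with a difference of -0.24 (SE 0.13, 95% interval -0.52 to 0.04). The separation between the nearest arrays was narrow, and B6xPWD replicate 3 stood above the other 22 arrays. PWDxPWK had 6.98 and 6.94, B6xBALB/C 6.71 to 7.19 with a median of 6.92, and BALB/CxB6 6.81, 7.16 and 7.11. The parents had 6.89, 6.95 and 6.97 in PWD, and 6.63, 6.69 and 7.04 in B6. B6xPWD was 0.32 above the mid-parent (SE 0.12) and PWDxB6 0.08 above it (SE 0.12). Without B6xPWD replicate 3 the reciprocal difference was -0.11 and B6xPWD was 0.19 above the mid-parent. The tested differences of Chek2 ran from -0.19 (interaction, SE 0.19, limma adjusted p = 0.983) to 0.21 (B6 and BALB/C F1s minus B6, SE 0.11, limma adjusted p = 0.299).

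**Figure D4:**
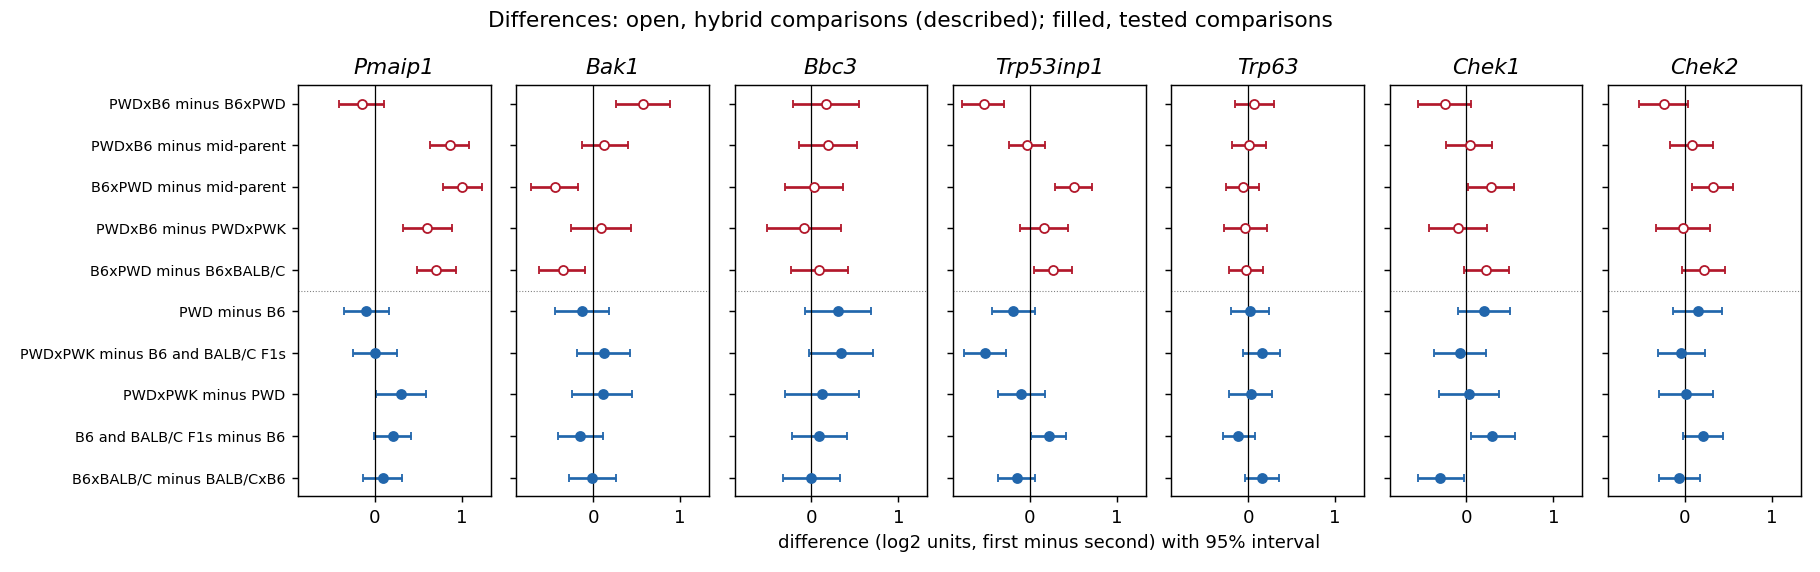
Differences (horizontal axes, log2 units, first genotype minus second) of the 7 genes with 95% intervals. Open points are comparisons with a hybrid between subspecies, described and not tested; filled points are tested. Pmaip1 stands at 0.86 and 1.00 against the mid-parent and at 0.60 and 0.70 against the F1 of the same mother; among filled points only Trp53inp1 between PWDxPWK and the B6 and BALB/C F1s (-0.51) passed.

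Counted over the 7 genes, in the reciprocal comparison 3 of 7 had arrays without overlap (Bak1 higher in PWDxB6, Trp53inp1 and Chek2 lower), where 24% of all genes did. Against the mid-parent it was 1 of 7 in PWDxB6 (Pmaip1, 4.49% of all genes) and 3 of 7 in B6xPWD (Pmaip1 and Trp53inp1 higher, Bak1 lower, 14.3% of all genes). Pmaip1 was also the 1 gene without overlap between PWDxB6 and PWDxPWK (26.9% of all genes) and between B6xPWD and B6xBALB/C (13.8%). Nothing is read from these counts, since the same arrays chose the genes.

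In the tested comparisons 0 of 7 genes passed between PWD and B6, where 18.4% of all genes did. There 0 of 7 had an unadjusted p under 0.05 in limma, beside 4578 of all 14745 genes. Bbc3 and Trp53inp1 had parental arrays without overlap there, as did 38% of all genes. The counts were 0 of 7 for PWDxPWK minus PWD (0.00678% of all genes called), for the B6 and BALB/C F1s minus B6 (4.51%), for B6xBALB/C minus BALB/CxB6 (0.441%) and for the difference between the F1 effects (0.061%). In that order 1, 2, 1 and 0 genes had an unadjusted p under 0.05 in limma, beside 419, 3102, 2095 and 845 of all 14745 genes. Arrays without overlap were found for Pmaip1 between PWDxPWK and PWD (21.5% of all genes) and for 0 of 7 genes in both comparisons of the B6 and BALB/C F1s (5.56% against B6, 3.91% between the reciprocal F1s). The median of the 7 differences was 0.02 for PWD minus B6 and 0.21 for the B6 and BALB/C F1s minus B6, where the medians of all genes were 0.04 and 0.01.

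The wider pathway was read from 109 genes on 6 lists that hold none of the 7 (targets of p53, the BCL2 family, caspases and their regulators, the checkpoint kinase pathway, regulators of the p53 family, and inhibitors of cyclin-dependent kinases), of which 97 were tested. The lists were chosen with earlier results of these data known, so their shares and p-values in the hybrid comparisons are a description. In B6xPWD against the mid-parent, 17 rose and 7 fell. That is 24.7% of the 97, where 14.5% of all genes were called, and the median difference was 0.08 for these genes and -0.03 for all. In PWDxB6 against the mid-parent 0 of 97 passed in limma, where 0.671% of all genes were called. At an unadjusted p under 0.05 in limma there were 14 of the 97, beside 1764 of all 14745 genes. For B6xPWD against the mid-parent there were 36 of the 97 at that level, beside 4664 of all. The 24.7% called for B6xPWD rested on single arrays. The pathway share was above that of all genes in 18 of 19 alternatives and below it in 1. In the latter, without B6xPWD replicate 2, the count was 1 (1.03%, beside 2.64% of all genes). With array weights the count was 40, a share little above that of all genes (41.2%, beside 40.5%). It was 15 (15.5%, beside 9.55%) without B6xPWD replicate 1, 14 (14.4%, beside 10.3%) without PWD replicate 1, and 11 (11.3%, beside 5.91%) with the pachytene marker level as a covariate.

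Among p53 targets, 6 of 24 rose and 3 fell in B6xPWD against the mid-parent, 37.5% called beside the 14.5% of all genes. Plk2, a kinase of the stress response, rose by 0.66 (SE 0.14, limma adjusted p = 0.00533). Mdm2, the ubiquitin ligase that holds p53 in check, ran from 9.40 to 9.48 in B6xPWD, against 8.88 to 9.10 in PWD and 8.76 to 8.83 in B6, a rise of 0.53 (SE 0.12, limma adjusted p = 0.00715). Triap1, an inhibitor of apoptosis induced by p53, rose by 0.65 (SE 0.15, limma adjusted p = 0.00738) and passed in all 18 alternatives, while Plk2 and Mdm2 each missed in 1 of 19, at adjusted p-values of 0.0636 and 0.053. In PWDxB6, Mdm2 averaged 9.05 ± 0.20 and Triap1 6.20 ± 0.14 (SD, n = 3 each), between their B6xPWD and mid-parent levels.

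Inhibitors of cyclin-dependent kinases had 4 of 6 higher in B6xPWD than the mid-parent and 0 lower, 66.7% beside 14.5% of all genes. Cdkn1c rose by 0.64 (SE 0.13, limma adjusted p = 0.0053), Cdkn2c by 0.69 (SE 0.16, limma adjusted p = 0.01) and Cdkn2d by 0.57 (SE 0.14, limma adjusted p = 0.0143). All 3 of these calls were lost without B6xPWD replicate 2, at limma adjusted p-values of 0.0564 for Cdkn1c, 0.0763 for Cdkn2c and 0.107 for Cdkn2d, and that of Cdkn2d also without B6xPWD replicate 1 (0.0616). Cdkn1c averaged 7.62 ± 0.28 in PWDxB6 and 7.71 ± 0.16 in B6xPWD, against 7.18 ± 0.06 in PWD and, for the domesticus parent, 6.95 ± 0.28 (SD, n = 3 each). Cdkn2c and Cdkn2d are known to be expressed in germ cells that leave mitosis, and Cdkn2c varied widely in PWDxB6, from 6.48 to 7.43.

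The regulators of p53 split in B6xPWD, with 1 of 11 higher than the mid-parent and 3 lower (36.4% called, beside 14.5% of all genes). Rchy1, a ubiquitin ligase for p53, rose by 0.50 (SE 0.11, limma adjusted p = 0.00636). Hipk2, a kinase that activates p53, fell by 0.53 (SE 0.14, limma adjusted p = 0.018), and Ep300, an acetyltransferase that acts on p53, fell by 0.41 (SE 0.11, limma adjusted p = 0.0213). With the pachytene marker level as a covariate both calls were lost (-0.41 for Hipk2, limma adjusted p = 0.0667, and -0.34 for Ep300, limma adjusted p = 0.0786), and without B6xPWD replicate 2 those of all 3 were.

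Of 25 checkpoint kinase genes 2 rose in B6xPWD against the mid-parent and 0 fell, a share of 8% that was below the 14.5% of all genes. They were Rad1 by 0.61 (SE 0.14, limma adjusted p = 0.0104) and Rad17 by 0.37 (SE 0.12, limma adjusted p = 0.0414), both parts of the machinery that loads the 9-1-1 clamp or form it. The Rad17 call was lost in 9 of 19 alternatives (0.24 with the pachytene covariate, limma adjusted p = 0.166), and the Rad1 call in 1 (without B6xPWD replicate 2). Of 19 caspases and regulators 4 rose and 0 fell (21.1%), among them Diablo, which relieves the block on caspases, by 0.69 (SE 0.21, limma adjusted p = 0.029), Htra2, a mitochondrial protease released in apoptosis, by 0.40 (SE 0.12, limma adjusted p = 0.0251) and Birc5 (survivin) by 0.47 (SE 0.14, limma adjusted p = 0.032). Of the 19 alternatives, the call was lost in 5 for Diablo, 4 for Htra2 and 7 for Birc5, and with the pachytene covariate Diablo differed by 0.37 (limma adjusted p = 0.0619). Of 12 BCL2 family genes 1 fell (8.33%, also below the share of all genes), Bcl2 itself, by 0.26 (SE 0.09, limma adjusted p = 0.0459), a call that 14 of 18 alternatives did not hold.

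Between the reciprocal hybrids 2 of 97 pathway genes rose in PWDxB6 and 1 fell, that is 3.09% where 2.83% of all genes were called. At an unadjusted p under 0.05 in limma there were 25 of the 97, beside 3112 of all 14745 genes. Bmf, a BH3-only gene, averaged 7.45 ± 0.13 in PWDxB6 and 6.98 ± 0.05 in B6xPWD (SD, n = 3 each), a difference of 0.46 (SE 0.11, limma adjusted p = 0.0248). Hipk2 averaged 8.14 ± 0.17 in PWDxB6 and 7.52 ± 0.11 in B6xPWD (difference 0.62, SE 0.16, limma adjusted p = 0.0415), and Aen, a p53-induced nuclease, 7.35 ± 0.13 in PWDxB6 and 7.71 ± 0.01 in B6xPWD (difference -0.37, SE 0.10, limma adjusted p = 0.0428). Each of the 3 calls was lost in some alternatives, 5 of 16 for Bmf, 8 of 16 for Hipk2 and 10 of 16 for Aen. Without B6xPWD replicate 2, or without PWDxB6 replicate 1 or 3, 0 of the pathway genes passed, beside 0.4%, 0.549% and 0.366% of all genes in that order.

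The parental strains differed in the signal of 15 of the 97 pathway genes, 7 higher and 8 lower in PWD, a share of 15.5% beside 18.4% of all genes. Sequence differences under the probes were not examined for these genes. Bik, a BH3-only gene, averaged 6.29 ± 0.17 in PWD, against 7.02 ± 0.30 in B6 (n = 3 each, SD), a difference of -0.74 (SE 0.15, limma adjusted p = 0.00175). Casp8, the initiator caspase of death receptors, differed by -0.64 (SE 0.13, limma adjusted p = 0.00193), and Rad9b, the germ-cell paralog of the clamp subunit RAD9, by -0.76 (SE 0.17, limma adjusted p = 0.00288). Aen was 0.37 higher in PWD (SE 0.10, limma adjusted p = 0.0106), Ppp1r13b, which directs p53 toward death genes, 0.36 higher (SE 0.10, limma adjusted p = 0.0118), and Atm 0.47 higher (SE 0.15, limma adjusted p = 0.0272). The calls for Bik and Casp8 held in all 16 alternatives. That for Rad9b was lost with the pachytene covariate (-0.33, limma adjusted p = 0.0911), and those for Aen, Ppp1r13b and Atm in 1, 3 and 5 of 16 in that order. The count of 15 was 8, 6 and 7 without PWD replicate 1, 2 and 3, beside 12.5%, 12.2% and 13.2% of all genes. It was 8 without B6 replicate 2 or 3, beside 15.9% and 13.2%. In all 16 alternatives the pathway share was below that of all genes.

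Between PWDxPWK and the B6 and BALB/C F1s 2 of 97 rose and 6 fell, 8.25% beside 11% of all genes. The pathway share was the lower in all 23 alternatives. Rad9b averaged 8.46 ± 0.16 in PWDxPWK (SD, n = 2), against 9.48 ± 0.32 in B6xBALB/C (SD, n = 6) and 9.20 ± 0.12 in BALB/CxB6 (SD, n = 3), and its difference of -0.88 (SE 0.16, limma adjusted p = 0.000744) passed in all 23 alternatives. Rad1 differed by -0.65 (SE 0.16, limma adjusted p = 0.00898), Bik by -0.54 (SE 0.15, limma adjusted p = 0.0216) and Btg2, an antiproliferative p53 target, by -0.90 (SE 0.29, limma adjusted p = 0.0487). Of 23 alternatives, the call was lost in 2 for Rad1, 3 for Bik and 12 for Btg2 (limma adjusted p up to 0.312). The count of 8 was 2 without PWDxPWK replicate 1, 1 without replicate 2, and 5 without B6xBALB/C replicate 5 or BALB/CxB6 replicate 1. The B6 and BALB/C F1s exceeded inbred B6 in 3 of 97 genes (3.09%, beside 4.51% of all), Rad1 by 0.53 (SE 0.14, limma adjusted p = 0.0294), Cdkn2a by 0.36 (SE 0.08, limma adjusted p = 0.0209) and Rchy1 by 0.37 (SE 0.10, limma adjusted p = 0.0441), a count that was 6 without B6xBALB/C replicate 6 or BALB/CxB6 replicate 1, 1 without BALB/CxB6 replicate 2 or 3 or B6 replicate 1, and 0 without B6 replicate 2. Of 24 alternatives, the call was lost in 5 for Rad1, 6 for Cdkn2a and 15 for Rchy1, whose difference was 0.25 without B6 replicate 1 (limma adjusted p up to 0.27 over the alternatives). The pathway share was below that of all genes in all 24. In limma 0 of 97 passed for PWDxPWK minus PWD, for B6xBALB/C minus BALB/CxB6 and for the difference of F1 effects. At an unadjusted p under 0.05 these had 1, 18 and 5 genes in that order, beside 419, 2095 and 845 of all 14745. Without B6xBALB/C replicate 6, 8 of the 97 passed for B6xBALB/C minus BALB/CxB6 (8.25%, beside 6.86% of all genes). For that comparison the pathway share was above that of all genes in 4 of 21 alternatives and below it in 14.

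**Figure D5:**
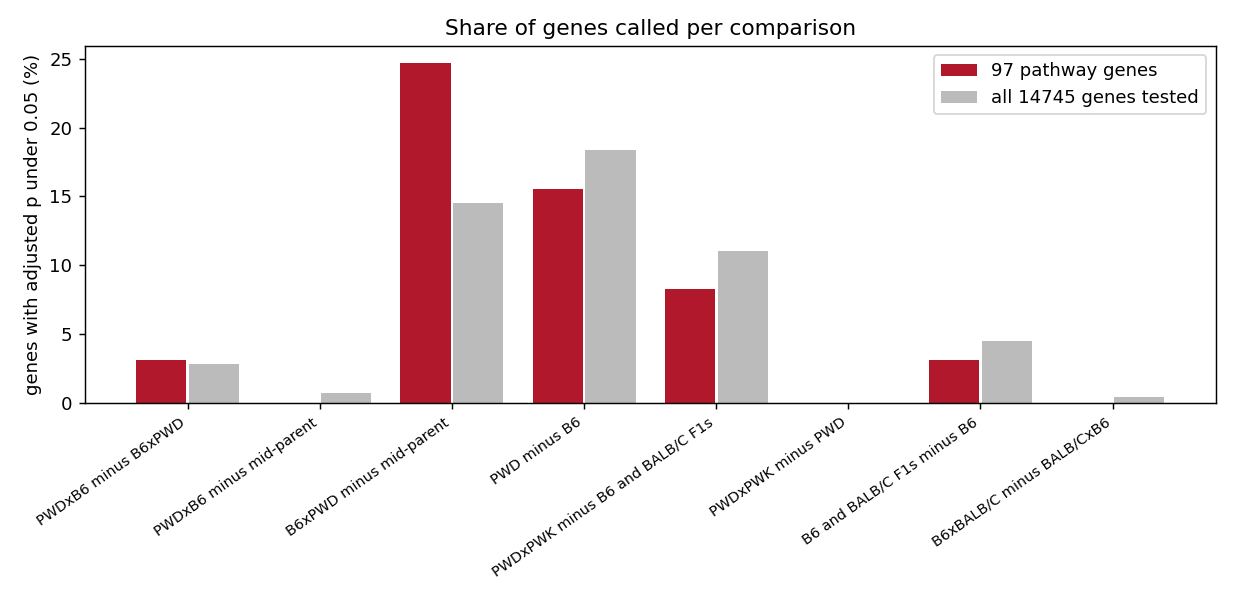
Share of genes with a limma adjusted p under 0.05 (vertical axis, percent, from 0) in 8 comparisons, for the 97 pathway genes tested and for all 14745 genes. The share for pathway genes is 24.7% beside 14.5% in B6xPWD minus mid-parent and 15.5% beside 18.4% in PWD minus B6; empty places are 0 or too small to see. Shares in comparisons with a hybrid between subspecies are a description, since the lists were chosen with earlier results known.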

How the data were processed

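Each of the 23 Affymetrix Mouse Gene 1.0 ST arrays was hybridized with total RNA of spermatogenic cells isolated from 4 pooled testes of 14.5-day-old mice, per the labels. The deposited table holds the authors' log2 values for 25690 probe sets. The base was inferred from their range (1.17 to 13.96). How they were corrected, normalized and centred is not given in the sources used here. Scanner files were not analysed here, so signal over background is unknown, and precision is limited by how many arrays there are.

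The platform annotation gave 20777 probe sets 1 symbol, 232 several and 4681 none. The Entrez IDs of 20696 were found in GRCm38.p6, which supplied chromosomes. Where 564 of 19661 genes had several probe sets, the one with the highest mean was kept. Genes in the lowest 25% by mean (log2 up to 5.125) were not tested, which left 14745.

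With limma 3.58.1 in R 4.3.3, all 23 arrays entered 1 linear model with a mean per genotype (7 means, 16 degrees of freedom left, moderated variances, no trend). A call is a Benjamini-Hochberg adjusted p under 0.05, adjusted over all 14745 genes. The mid-parent is the mean of PWD and B6, and the B6 and BALB/C F1s enter as the mean of their 2 genotypes. A step between neighbouring genotypes was beyond the spread when it exceeded the sum of both SDs. The 7 genes and the 6 pathway lists were chosen with earlier results of these data known. From each list and comparison, up to 3 called genes with the smallest p could be named, and not all of them are. Likeness was ranked by Pearson r over the 23 arrays, with 5 genes shown for Pmaip1 and for Bak1.

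Alternatives covered the dim filter (none, or the lowest 50% left out), the scaling (quantile, or centring on the autosomal median), averaging of probe sets, variances with trend and robust fitting, weights for arrays, replicate number as a block, fits of the compared groups alone, a pachytene marker score as a covariate, B6xBALB/C replicates 1 to 3 or 4 to 6 alone, and leaving out each array. The fit with the replicate block used replicates 1 to 3 only, so B6xBALB/C replicates 4 to 6 were left out of it. Where 1 PWDxPWK array was left, it was assumed to vary like the other genotypes. The model was tested on simulated data, but no result of that is given here and nothing is drawn from it. Plots used matplotlib 3.10.9 under Python 3.11.15.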

Additional observations from a re-analysis of the deposited data

Results flagged for a closer look

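Chek1 in B6xBALB/C replicate 3 was 8.65, while the other 5 arrays of that genotype lay between 8.22 and 8.36. Its gap to the nearest of them was 0.66 of the range of the 6 arrays, above Dixon's 95% critical value of 0.625. The 7 genes were each checked in the genotypes with 4 or more arrays, which is B6xBALB/C alone, and chance flags about 1 in 20 such groups.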

How the results depend on the processing

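Of 615 values of the 7 genes in comparisons with a hybrid, recomputed under the alternatives, 599 moved by less than 1 SD between arrays and 16 by more, all of them for Pmaip1, Bbc3 or Trp63. The Pmaip1 reciprocal difference of -0.15 was -0.32 with array weights, 0.03 with the pachytene covariate and 0.01 without PWDxB6 replicate 3. Of 878 values in tested comparisons, 832 kept direction and call, 2 lost the Trp53inp1 call, and 44 changed sign, none of them a called difference. The number of genes called for PWDxPWK minus the B6 and BALB/C F1s was 1 and, with 1 array left out, 0 to 1. Of 794 values of named pathway genes, 588 stayed called, 206 lost the call and 0 changed sign. The causes were not tested. Precision is limited by 2 to 6 arrays per genotype, and signal over background could not be read from these values.

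Pathway genes called, out of 97, moved by over 1.5 times as follows. For PWDxB6 minus B6xPWD (3) they were 1 with no dim filter, 38 with array weights, 7 with the replicate block, and 0 to 3 with 1 array left out. For PWDxB6 minus the mid-parent (0) they were 1 with trended and robust variances, 2 with array weights, 2 with the replicate block, 7 with the pachytene covariate, and 0 to 1 with 1 array left out. For B6xPWD minus the mid-parent (24) they were 40 with array weights, 11 with the pachytene covariate, and 1 to 23 with 1 array left out. For PWD minus B6 (15) they were 6 to 10 with 1 array left out, the lowest without PWD replicate 2. For PWDxPWK minus the B6 and BALB/C F1s (8) they were 5 with no dim filter, 4 with only the groups compared, and 1 to 10 with 1 array left out, the lowest without PWDxPWK replicate 2. For those F1s minus B6 (3) they were 5 with the lowest 50% left out, 10 with the replicate block, 11 with the pachytene covariate, 10 with B6xBALB/C replicates 1 to 3 only, 0 with replicates 4 to 6 only, 0 with only the groups compared, and 0 to 6 with 1 array left out. For B6xBALB/C minus BALB/CxB6 (0) they were 14 with array weights, 10 with the replicate block, 10 with B6xBALB/C replicates 1 to 3 only, and 0 to 8 with 1 array left out, the highest without B6xBALB/C replicate 6.

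Sign changes with the pachytene covariate gave, for Pmaip1, 0.11 in PWD minus B6, 0.10 in PWDxPWK minus the B6 and BALB/C F1s, -0.11 in B6xBALB/C minus BALB/CxB6 and -0.01 in the difference of F1 effects. It gave 0.12 for Bak1 in B6xBALB/C minus BALB/CxB6, and, for Chek2, 0.01 in PWDxPWK minus the F1s and -0.02 in PWDxPWK minus PWD. With B6xBALB/C replicates 4 to 6 only, PWDxPWK minus the F1s was 0.04 for Pmaip1 and 0.03 for Chek2, B6xBALB/C minus BALB/CxB6 was 0.12 for Bak1, and the difference of F1 effects was -0.01 for Bbc3. With replicates 1 to 3 only, B6xBALB/C minus BALB/CxB6 was -0.09 for Bbc3 and 0.07 for Chek2. Quantile normalization and autosomal centring both gave -0.00 for Trp63 in PWD minus B6, and gave -0.02 and -0.03 for Bbc3 in B6xBALB/C minus BALB/CxB6. In B6xBALB/C minus BALB/CxB6, array weights gave -0.04 for Bbc3 and 0.05 for Chek2. With 1 array left out, Trp63 ran from -0.04 to 0.09 in PWD minus B6, and Pmaip1 from -0.03 to 0.02 in PWDxPWK minus the F1s. For PWDxPWK minus PWD the ranges were -0.14 to 0.38 for Bbc3, -0.08 to 0.14 for Trp63 and -0.03 to 0.10 for Chek1. For B6xBALB/C minus BALB/CxB6 they were -0.20 to 0.10 for Bak1, -0.07 to 0.04 for Bbc3 and -0.17 to 0.00 for Chek2, and for the difference of F1 effects -0.23 to 0.29 for Bbc3.

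Deviations from the genotype means gave no clear sign that replicate numbers pair the arrays, which does not exclude pairing. They correlated at a mean r of 0.03 over 57 pairs of arrays with the same number (17 over 0.1). Over 114 pairs with different numbers the mean r was -0.02 (33 over 0.1). With the number as a replicate block, B6xBALB/C minus BALB/CxB6 was -0.09 for Bbc3 and 0.07 for Chek2, the difference of F1 effects was -0.00 for Bbc3, and the Trp53inp1 difference of -0.51 was -0.50 (limma adjusted p = 0.00709).

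Calls over all 14745 genes moved as well. For PWDxB6 minus B6xPWD they were 418, with 4635 (array weights), 1044 (replicate block), 128 (pachytene covariate), 207 (only the groups compared) and 54 to 626 (1 array left out). For PWDxB6 minus the mid-parent they were 99, with 212, 239, 737 and 174 under the same 4 settings and 30 to 87 with 1 array left out. For B6xPWD minus the mid-parent they were 2135, with 5967 (array weights), 872 (pachytene covariate) and 389 to 2433 (1 array left out). With 1 array left out, the 2719 of PWD minus B6 were 1802 to 2341 and the 1620 of PWDxPWK minus the F1s 775 to 2003. The 1 call of PWDxPWK minus PWD ran from 0 to 4, the 665 of the F1s minus B6 from 188 to 1713, the 65 of B6xBALB/C minus BALB/CxB6 from 0 to 1618, and the 9 of the difference of F1 effects from 5 to 38.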
